A study of Mus musculus with 59 samples.

Results

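The Wnt genes described here are 45 of the 55421 rows of the gene table, taken by a rule on gene symbols alone. They comprise 19 Wnt ligands, 10 Frizzled receptors with the co-receptors Lrp5 and Lrp6, and 9 secreted antagonists of the Sfrp, Dkk and Wif families. The R-spondin receptors Lgr4 and Lgr5, the transcription factors Lef1 and Tcf7, and the feedback inhibitor Axin2 complete the set. A second table, of reads in introns, holds 39 of them among 33282 rows, since Fzd1, Fzd2, Fzd7, Fzd8, Fzd9 and Fzd10 have no row there. RNA was measured by sequencing in 59 primary mammary tumors, in the groups Methylparaben (n = 20), Propylparaben (n = 20) and Vehicle (n = 19). Both compounds are widely used preservatives, esters of para-hydroxybenzoic acid that carry a methyl group in methylparaben and a propyl group in propylparaben. Mice of all 3 groups, B6.FVB-Tg(MMTV-PyVT)634Mul/LellJ animals recorded as PyMT (+/-), carry a transgene in which the mouse mammary tumor virus promoter drives the polyoma middle T oncogene mainly in mammary epithelium. The oncogene is not itself a gene of the Wnt pathway. No age, dose, exposure time or batch is given. Whether each tumor came from its own animal is not stated either, so a p-value here reflects only how far these tumors vary, part of which may be technical.

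Wnt ligands are secreted proteins that bind Frizzled receptors together with Lrp5 or Lrp6. In the canonical branch this protects beta-catenin from degradation, and beta-catenin then acts with transcription factors such as Lef1 and Tcf7 on target genes such as Axin2. Sfrp proteins and Wif1 bind the ligands outside the cell, several Dkk proteins block the co-receptors, and R-spondins acting on Lgr4 and Lgr5 slow the removal of Frizzled receptors from the membrane. In the mammary gland, ligands come from both stroma and epithelium, and Wnt1 is known as an oncogene activated by insertion of mouse mammary tumor virus.

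Promoter sequences are shown for the genes on which the comparisons below turn (Fzd4, Wif1 and Axin2) and, as examples of a match to a core motif bound by TCF/LEF factors, for Fzd7 and Wnt5b. RefSeq (build GRCm38.p6) gave windows of 250 bases before a transcription start for 30 of the 45 members, 37 windows in all. The core motif CTTTGAT was searched on both strands, as were its variants ending differently, namely CTTTGTT and in the same way CTTTGAA and lastly the form CTTTGTA. These 4 differ in their last bases, so no pair can match at the same position. At least 1 of the 4 lay in 5 of the 30 members (16.7%) and in 16.8% of all 27025 genes with a window. Over single windows the share was 14.8% of 32851, with 3.21% for CTTTGAT, 5.03% for CTTTGTT, 4.46% for CTTTGAA and 3.20% for CTTTGTA. The members with a match were Fzd7, Wnt5b, Wnt11, Lef1 and Dkk1. Each sequence runs 5′ to 3′ on the strand of its gene, bases annotated as exon in GENCODE M21 were left out, and capitals mark a motif match.
Fzd4 (chr7:89404223-89404354, plus strand): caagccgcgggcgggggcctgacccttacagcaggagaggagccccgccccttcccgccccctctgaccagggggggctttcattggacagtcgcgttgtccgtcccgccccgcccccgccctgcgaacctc
Wif1 (chr10:121033754-121033959, plus strand): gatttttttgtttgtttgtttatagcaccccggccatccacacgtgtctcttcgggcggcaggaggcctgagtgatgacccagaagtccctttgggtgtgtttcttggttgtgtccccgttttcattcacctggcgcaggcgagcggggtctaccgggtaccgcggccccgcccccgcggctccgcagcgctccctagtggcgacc
Axin2 (chr11:108920099-108920348, plus strand): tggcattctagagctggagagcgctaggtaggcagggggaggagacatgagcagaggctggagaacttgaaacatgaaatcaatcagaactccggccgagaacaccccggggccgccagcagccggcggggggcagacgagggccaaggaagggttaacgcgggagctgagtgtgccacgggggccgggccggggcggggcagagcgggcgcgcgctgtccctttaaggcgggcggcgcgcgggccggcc
Fzd7 (chr1:59481897-59482146, plus strand): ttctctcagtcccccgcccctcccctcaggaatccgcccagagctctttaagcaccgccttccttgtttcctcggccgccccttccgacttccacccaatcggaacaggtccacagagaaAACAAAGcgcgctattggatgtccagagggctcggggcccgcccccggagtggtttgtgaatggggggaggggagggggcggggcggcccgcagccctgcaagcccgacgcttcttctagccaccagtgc
Wnt5b (chr6:119449387-119449636, minus strand): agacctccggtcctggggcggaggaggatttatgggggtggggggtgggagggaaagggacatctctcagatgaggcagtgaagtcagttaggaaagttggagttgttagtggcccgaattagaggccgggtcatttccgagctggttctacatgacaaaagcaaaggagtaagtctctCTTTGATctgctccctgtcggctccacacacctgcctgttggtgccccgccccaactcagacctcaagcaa
The Fzd7 match is CTTTGTT on the opposite strand, beginning 130 bases before the start. The Wnt5b match is CTTTGAT, 71 bases before 1 of the gene's 3 starts. Fzd4, Wif1 and Axin2 held none of the 4 motifs anywhere in their 250-base windows, including the exon bases of Fzd4 and Wif1 that are not printed.

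Each library held 1166502 to 2032789 reads on genes and 307255 to 1059351 reads in introns. Values are CPM (reads relative to the library's total) scaled for composition, written below as scaled CPM. The epithelial markers Epcam, Krt8, Krt18, Cdh1, Cldn3 and Cldn7 had reads in every tumor. The first principal component carried 19.1% of the variance. Propylparaben tumor 1 and vehicle tumors 7, 8, 10, 13, 14 and 19 were its 7 lowest. No clear gap set them apart, since vehicle tumor 13 (-36.3) was followed by vehicle tumor 1 (-31.8), and the number 7 was a choice. All 7 were among the 10 tumors with the highest mitosis scores and among the 12 with the lowest fibroblast scores, a score being the mean log2(scaled CPM + 1) of a list of marker genes. Because 6 of these 7 are vehicle tumors, limma calls and the member differences from vehicle with the smallest p in the gene table are also given without them. This left 13 vehicle tumors and all 20 methylparaben tumors, and took tumors from 1 end of the component only. The mean vehicle fibroblast score thereby went from 5.74 to 6.16. A smaller difference or a lost call under this setting cannot be told from an effect of the removal itself. Methylparaben tumors 1, 5 and 16 and vehicle tumors 1 and 2 had a scaling factor under 0.9. In a whole piece of tumor, fewer cells of a type and less RNA per cell cannot be told apart.

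The antagonists Sfrp1 and Sfrp2 were the most abundant Wnt RNAs in these tumors per length, and most ligands had few reads. Of the 45 genes, 29 reached a mean of 1 scaled CPM and were tested, 15 had reads but a lower mean, and Dkk4 had no read in any library, which allows at most 0.0319 CPM over the 94118397 reads of all libraries (3 reads, counting error only). Among the 9 antagonists 6 were tested, and Sfrp1 led all 45 genes with a mean of 46.6 scaled CPM per kb of exon. Sfrp2 followed at 19.2 and Wif1 at 17.6, while Dkk3 had 5.81, Sfrp4 1.55 and Dkk2 1.32 on the same scale. The place of Wif1 rests on vehicle tumor 4, described below: without it the mean was 11.6 scaled CPM per kb, below Lgr4 and Lrp6, and the median over all 59 tumors was 9.33. Dkk1, a blocker of Lrp5 and Lrp6, had 2 reads, both in the same tumor, and Sfrp5 had 99 reads in 36 tumors.

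All 12 receptors and co-receptors were tested. Lrp6 led them at 12.6 scaled CPM per kb, with Lrp5 at 2.65. Fzd7, a receptor known from basal and progenitor cells of the mammary gland, led the Frizzled genes at 9.95. Fzd2 (6.39), Fzd1 (5.82), Fzd5 (5.54), Fzd3 (4.89) and Fzd6 (4.76) lay close together, then came Fzd4 (2.94), Fzd9 (2.19), Fzd8 (1.10) and Fzd10 (0.973). Lgr4 stood at 13.2 scaled CPM per kb and Lgr5, a marker of stem cells in several epithelia, at 0.372. Tcf7 had 2.06, Axin2 1.36 and Lef1 0.204.

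Only 6 of the 19 ligands were tested. Wnt5b (8.48 scaled CPM per kb) and Wnt5a (7.41), both known mainly for signaling without beta-catenin, were far above Wnt7b (2.15), Wnt4 (1.69), Wnt9a (1.24) and Wnt2 (1.07). The other 13 ligands had 1 to 132 reads over all 59 libraries. Wnt1 had 2 reads and Wnt3a had 1 read over all 59 libraries, and Wnt3 had 10 reads in 5 tumors. Wnt6 had 132 reads in 44 tumors, with the highest level, 7.47 scaled CPM from 19 reads, in methylparaben tumor 9. Wnt10a, Wnt10b and Wnt11 had 70 to 75 reads each in 33 to 38 tumors. The 4 pairs of neighboring ligand genes are on shared chromosome stretches (Wnt6 with Wnt10a, Wnt1 with Wnt10b, Wnt3 with Wnt9b, Wnt3a with Wnt9a), and since in none were both genes tested, none was correlated.

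**Figure D1:**
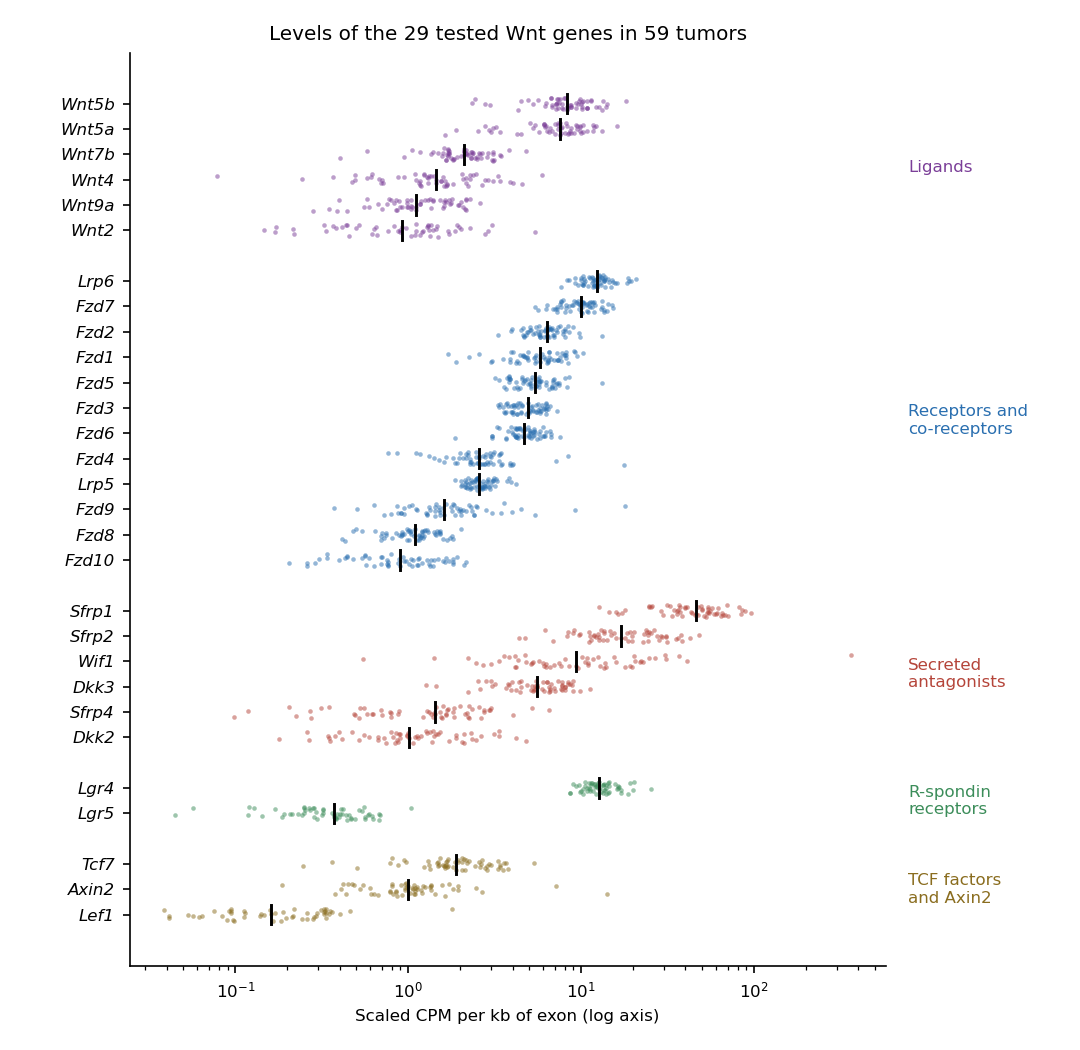
Level per kb of exon (log axis) of each of the 29 tested genes, 1 point per tumor, with the median as a black bar, grouped by role. Tumors at 0 (5 for Wnt2 and 6 for Lef1) cannot be drawn on a log axis. Sfrp1 is highest, and Wif1 is spread over the widest range because of a single vehicle tumor at the far right.

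Spread across tumors differed within the roles. The SD of Lrp5 over the 59 tumors was 0.24 on the log2 scale, at percentile 18.8 of all tested genes, and Lrp6 (0.30), Fzd3 (0.29), Lgr4 (0.32), Fzd6 (0.33), Fzd2 (0.34) and Fzd7 (0.34) were similar. Other receptors varied more, with an SD of 0.75 for Fzd9 (percentile 93.0), 0.66 for Fzd4 (88.2), 0.59 for Fzd10 (80.5) and 0.53 for Fzd1 (71.7). Wif1 had an SD of 1.32, larger than that of 99.3% of all tested genes. The percentile was 97.6 for Sfrp4, 95.4 for Wnt4, 95.2 for Wnt2, 95.0 for Axin2 and 93.2 for Sfrp2. Counting error is larger for genes with few reads, such as Wnt2 with 333 reads in all and Lef1 with 258.

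The first comparison asks which of these genes differed in tumors of animals given methylparaben. Fzd4, a receptor for Wnt ligands and for Norrin that is known from blood vessel growth, rose, and it was the 1 member of 29 to pass with limma over all genes (adjusted p under 0.05). Over all 14487 tested genes the share called was 1.32%. With edgeR 2 members (Fzd4 and Wif1) and 3.86% of all genes were called, and with DESeq2 1 member (Fzd4) and 4.42%. Without the 7 libraries limma called 0 members and 0 genes. With unadjusted p under 0.05 there were 6 of 29 members, against 22.1% of all genes. The median difference over the 29 members was 0.06 on the log2 scale, with 20 of them above 0, and over all tested genes it was 0.01, with 51.2% above 0.

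Fzd4 (chromosome 7, 89404355 to 89413134, plus strand) ranged from 11.1 through a median of 18.7 to 118 scaled CPM in methylparaben tumors, against 5.13 through 13.1 to 23.0 in vehicle tumors. The ranges overlapped, and 19 of 20 methylparaben tumors lay above the vehicle median. The difference was 0.67 ± 0.19 on the log2(value + 1) scale (SE, limma, adjusted p = 0.0492), and the count tests gave adjusted p = 0.0354 (edgeR) and 0.0158 (DESeq2). The call did not outlast the removal of the 7 libraries (0.48, limma adjusted p = 0.842), 6 cell type scores as covariates (0.29, limma adjusted p = 0.647) or the mitosis score as covariate (0.30, limma adjusted p = 0.987). Leaving out single libraries gave 0.54 (without methylparaben tumor 5) to 0.71, with a call in 17 of 59 such fits.

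Markers of fat and of several other tissues moved with Fzd4. All 9 adipocyte markers had a higher median in methylparaben than in vehicle tumors, and their summed level was 33.9 to 14256 scaled CPM (median 724) in methylparaben, against 18.9 to 745 (median 209) in vehicle tumors. None of the 9 was at 0 in every tumor, although Lep was at 0 in 9 tumors and Cidec in 4. A higher median in methylparaben tumors was also found for 7 of 8 endothelial markers (median sum 131, against 111 in vehicle tumors). The same held for all 6 skeletal muscle markers (185, against 15.7) and all 7 hormone-sensing luminal markers (474, against 292). It held for 4 of 6 epithelial, 6 of 10 T cell and 2 of 7 skin markers. Fzd4 was highest in methylparaben tumor 5, which also had the highest adipocyte score (9.52), skeletal muscle score (9.34), endothelial score (4.74) and mitochondrial share (11.5% of reads on genes). The 6 scores used as covariates above were fibroblast, adipocyte, T cell, B cell, macrophage and skeletal muscle. The endothelial score and the mitochondrial share were not among them. With these 6 scores the Fzd4 difference was 0.29, as given above.

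Wnt2, a ligand of the mammary stroma, ranged from 0.484 through 2.87 to 12.1 scaled CPM in methylparaben tumors, against 0 through 1.13 to 4.42 in vehicle tumors, a difference of 0.75 ± 0.24 that missed the threshold (limma adjusted p = 0.0732). In Wif1, an antagonist that binds the ligands, the values were 1.33 through 16.9 to 89.6 scaled CPM in methylparaben tumors and 12.8 through 33.8 to 882 in vehicle tumors. That is a difference of -1.01 ± 0.37 (limma adjusted p = 0.101), which edgeR called (adjusted p = 0.0252) and DESeq2 did not (adjusted p = 0.313). Only 5 of 20 methylparaben tumors lay above the vehicle median for Wif1. Without vehicle tumor 4, its highest, the difference was -0.76.

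The other 3 members with an unadjusted p under 0.05 were higher in methylparaben tumors and did not pass. Wnt5a had 22.9 through 60.97 to 103 scaled CPM in methylparaben and 12.7 through 47.4 to 127 in vehicle tumors (log2 difference 0.48 ± 0.20, limma adjusted p = 0.154). For Fzd1 the methylparaben values were 16.2 through 26.9 to 38.3, against 7.91 through 19.9 to 43.01 in vehicle tumors (0.37 ± 0.16, limma adjusted p = 0.159). Sfrp2 had 19.3 through 39.7 to 103 in methylparaben and 9.45 through 26.2 to 77.9 in vehicle tumors (0.50 ± 0.22, limma adjusted p = 0.172). Without the 7 libraries these differences were 0.06 for Wnt5a, 0.20 for Fzd1, 0.17 for Sfrp2 and 0.35 for Wnt2, and -0.96 for Wif1. All 10 fibroblast markers had a higher median in methylparaben than in vehicle tumors, with a summed level of 1302 to 4609 scaled CPM (median 2366) in methylparaben, against 369 to 4797 (median 1578) in vehicle tumors. All 8 mitosis markers had a lower one, with a summed level of 260.3 to 919 (median 459.8) in methylparaben, against 318.2 to 1233 (median 622) in vehicle tumors. With the 6 cell type scores as covariates the differences were 0.20 for Wnt2, 0.11 for Sfrp2, 0.26 for Wnt5a, 0.25 for Fzd1 and -0.62 for Wif1, and with the mitosis score that of Wif1 was -0.45.

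**Figure D2:**
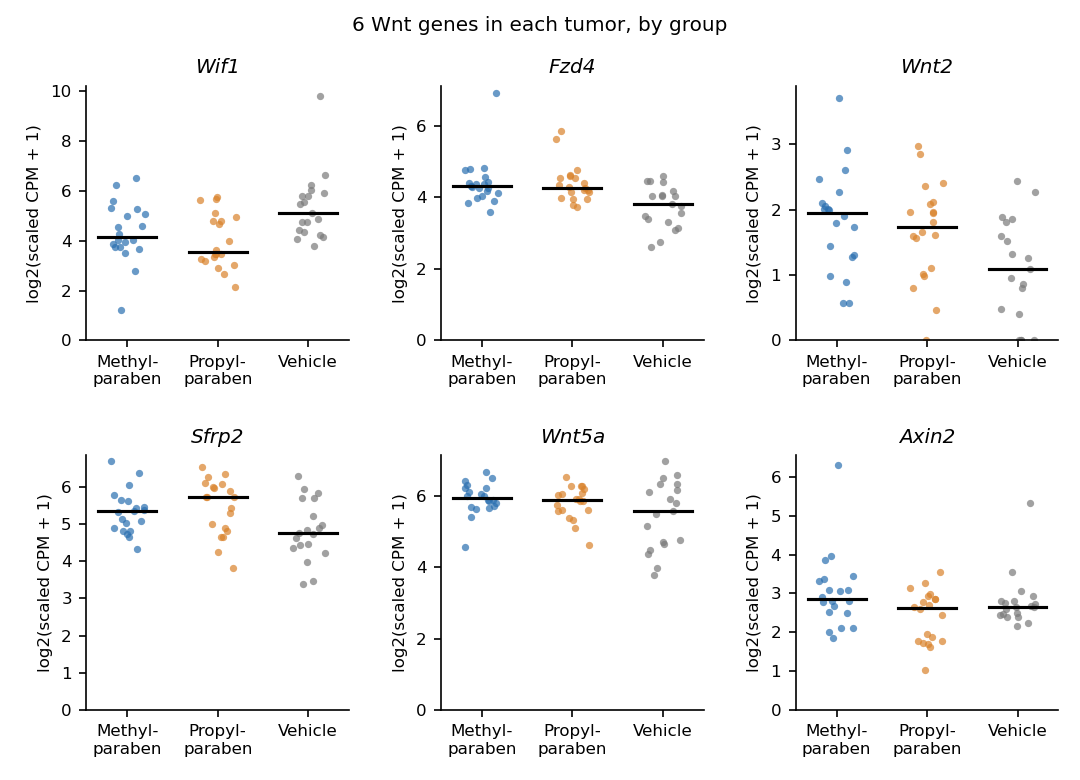
log2(scaled CPM + 1) of 6 Wnt genes in each tumor (points), with the group median as a bar, in methylparaben (n = 20), propylparaben (n = 20) and vehicle (n = 19) tumors. Groups overlap in every panel. Single tumors stand apart for Wif1 (vehicle, 882 scaled CPM), Fzd4 (methylparaben, 118) and Axin2 (methylparaben, 77.9).

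The second comparison sets propylparaben against vehicle. Of the 29 members 0 passed with limma, DESeq2 also called 0 and edgeR called 1 (Wif1). The shares of all 14487 genes called were 0.0276% with limma, 1.59% with DESeq2 and 0.145% with edgeR. An unadjusted p under 0.05 was reached by 6 of 29 members and by 18.4% of all genes. Limma called 0 members and 0 genes without the 7 libraries. This comparison shares its vehicle tumors with the first, so like values in the 2 comparisons are not independent of each other.

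Wif1 had the smallest p. It ranged from 3.41 through 10.8 to 52.9 scaled CPM in propylparaben tumors, against 12.8 through 33.8 to 882 in vehicle tumors, and 3 of 20 propylparaben tumors lay above the vehicle median. The difference was -1.36 ± 0.37 (limma adjusted p = 0.0692, edgeR adjusted p = 0.0448, DESeq2 adjusted p = 0.0799). It was -1.34 without the 7 libraries (limma adjusted p = 0.843), -1.11 without vehicle tumor 4 and -0.91 with the mitosis score as covariate. Leaving out single libraries led to a call in 5 of 59 fits. The 8 mitosis markers, which moved with Wif1, all had a lower median in propylparaben than in vehicle tumors, with a summed level of 318.2 to 1113 scaled CPM (median 544) in propylparaben and 318.2 to 1233 (median 622) in vehicle tumors.

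Fzd4 had 12.1 through 18.3 to 56.2 scaled CPM in propylparaben tumors, against 5.13 through 13.1 to 23.0 in vehicle tumors (0.65 ± 0.19, limma adjusted p = 0.0774), and 18 of 20 were above the vehicle median. Sfrp2 had 13.2 through 52.6 to 91.5 in propylparaben and 9.45 through 26.2 to 77.9 in vehicle tumors (0.62 ± 0.22, limma adjusted p = 0.128). Wnt2 had 0 through 2.34 to 6.84 in propylparaben and 0 through 1.13 to 4.42 in vehicle tumors (0.58 ± 0.24, limma adjusted p = 0.185). The values of Sfrp4, a stromal antagonist, were 1.15 through 7.30 to 21.5 in propylparaben and 0.411 through 3.30 to 10.7 in vehicle tumors (0.62 ± 0.29, limma adjusted p = 0.242). For Wnt9a they were 1.29 through 4.83 to 8.67 in propylparaben and 0.932 through 3.25 to 7.14 in vehicle tumors (0.36 ± 0.17, limma adjusted p = 0.253). All 10 fibroblast markers had a higher median in propylparaben than in vehicle tumors, with a summed level of 849 to 5493 scaled CPM (median 2581) in propylparaben, against 369 to 4797 (median 1578) in vehicle tumors. So did all 9 adipocyte, 8 endothelial, 6 skeletal muscle and 7 hormone-sensing luminal markers, but only 3 of 6 epithelial and 0 of 7 skin markers. With 6 cell type scores as covariates the differences were 0.38 for Fzd4, 0.20 for Sfrp2, 0.11 for Wnt2, 0.01 for Sfrp4 and 0.17 for Wnt9a. Without the 7 libraries they were 0.48 for Fzd4, 0.36 for Sfrp2, 0.22 for Wnt2, 0.31 for Sfrp4 and 0.27 for Wnt9a.

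The canonical readouts did not pass in either comparison with vehicle. Axin2 had 2.59 through 6.30 to 77.9 scaled CPM in methylparaben, 1.024 through 5.15 to 10.7 in propylparaben and 3.48 through 5.26 to 39.1 in vehicle tumors. Its difference from vehicle was 0.23 ± 0.24 for methylparaben and -0.39 ± 0.24 for propylparaben (limma adjusted p = 0.603 and 0.395). Without the 7 libraries it was 0.41 for methylparaben and -0.14 for propylparaben. Tcf7 had 0.956 through 4.43 to 14.03 in methylparaben, 0.646 through 4.35 to 8.70 in propylparaben and 2.11 through 5.71 to 9.57 in vehicle tumors, with differences of -0.31 and -0.34. Lef1 had 0 through 1.11 to 4.03 in methylparaben, 0 through 2.09 to 3.55 in propylparaben and 0 through 1.28 to 15.8 in vehicle tumors. Lgr5 had 1.90 through 3.82 to 6.94 in methylparaben, 0.456 through 3.82 to 6.38 in propylparaben and 1.21 through 3.30 to 10.7 in vehicle tumors. Lgr4 had 58.4 through 71.2 to 112 in methylparaben, 50.7 through 73.8 to 117 in propylparaben and 50.6 through 84.4 to 149 in vehicle tumors. The Lgr4 difference from vehicle was -0.14 ± 0.10 for methylparaben and -0.17 ± 0.10 for propylparaben (limma adjusted p = 0.408 and 0.343). In each group 3 of 20 tumors lay above the vehicle median. Without the 7 libraries the differences were -0.01 and -0.08.

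The abundant members overlapped widely between the 3 groups. Sfrp1 had 54.9 through 181 to 364 scaled CPM in methylparaben, 69.5 through 239 to 388 in propylparaben and 63.0 through 179 to 420.0 in vehicle tumors. Lrp6 ranged from 116 through 164 to 256 in methylparaben, 126 through 169 to 206 in propylparaben and 104 through 160.5 to 285 in vehicle tumors. The median of Wnt5b was 21.9 in methylparaben, 21.6 in propylparaben and 22.3 in vehicle tumors, with extremes of 6.21 and 48.2 over all tumors. Fzd7 had a median of 44.3 in methylparaben, 46.5 in propylparaben and 45.2 in vehicle tumors. For Fzd2 the median was 23.2 in methylparaben, 24.7 in propylparaben and 21.1 in vehicle tumors. Ranges overlapped for each of these genes. The median of Fzd5 was 34.3 in methylparaben, 36.5 in propylparaben and 39.3 in vehicle tumors, and that of Lrp5 was 24.6 in methylparaben, 25.2 in propylparaben and 26.005 in vehicle tumors. Wnt7b had a median of 10.6 in methylparaben, 10.3 in propylparaben and 8.94 in vehicle tumors, and Dkk3 one of 21.6 in methylparaben, 20.4 in propylparaben and 17.4 in vehicle tumors. Wnt4 had a median of 6.57 in methylparaben, 6.38 in propylparaben and 5.15 in vehicle tumors. The 95% intervals of the difference from vehicle stayed within -0.23 and 0.16 for Lrp6 and within -0.22 and 0.19 for Lrp5 in both comparisons.

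The third comparison sets the propyl against the methyl ester, which differ in the length of the alkyl chain of the ester. With limma and DESeq2 0 of 29 members and 0 genes passed, and edgeR called 0 members and 0.145% of genes. An unadjusted p under 0.05 was reached by Axin2 alone among the members and by 2.15% of genes. Axin2 had 1.024 through 5.15 to 10.7 scaled CPM in propylparaben and 2.59 through 6.30 to 77.9 in methylparaben tumors (-0.62 ± 0.24, limma p = 0.0126, adjusted p = 1.000). Without methylparaben tumor 20, its highest, the difference was -0.45. The 1 pair of compounds was compared at doses the labels do not give, so equal dose is not known.

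The intervals show how large a difference between the esters these tumors leave possible. The 95% interval ran from -0.38 to 0.35 for Fzd4 around a difference of -0.02, from -0.65 to 0.31 for Wnt2, from -0.31 to 0.56 for Sfrp2 and from -1.08 to 0.38 for Wif1. Sfrp1 was 0.28 ± 0.20 higher in propylparaben (interval -0.12 to 0.69). Lrp5 (interval -0.07 to 0.24), Wnt9a (-0.13 to 0.55) and Lgr5 (-0.54 to 0.20) also did not pass.

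**Figure D3:**
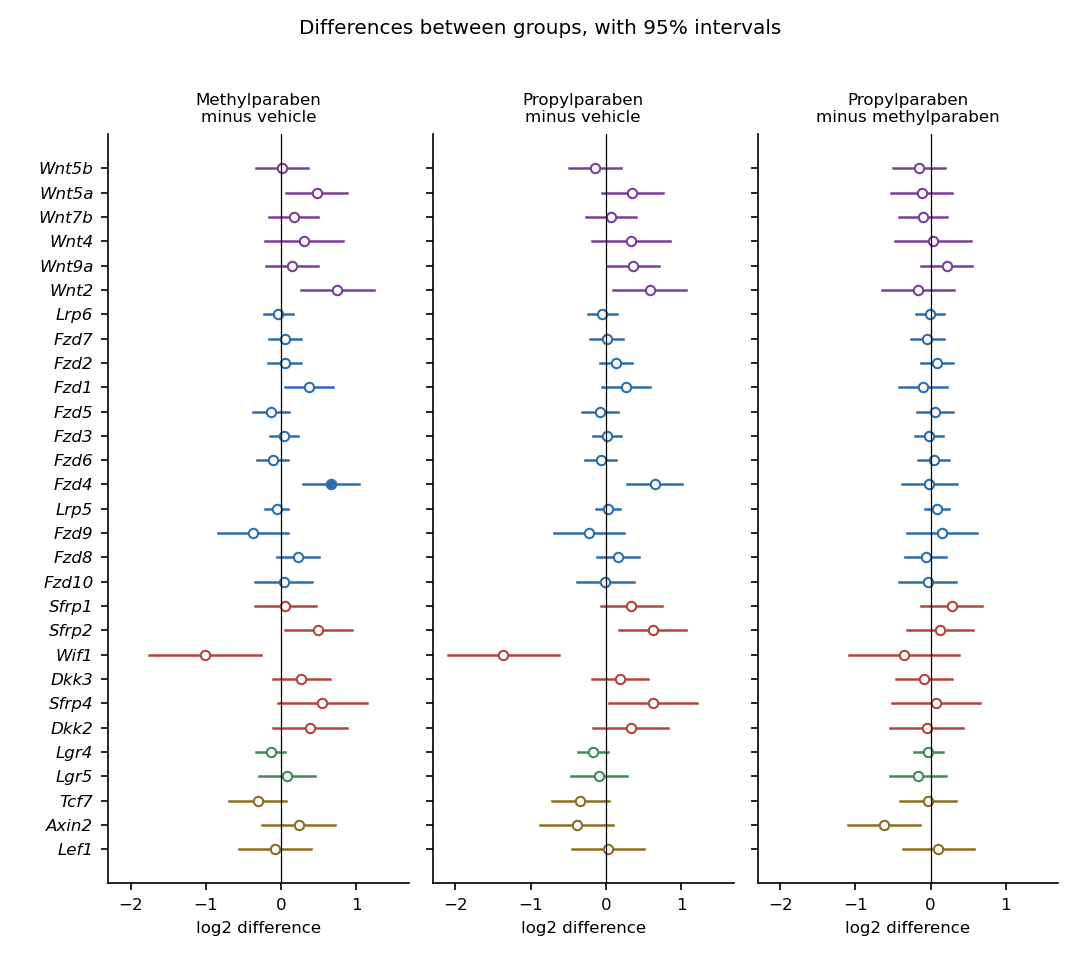
Difference between groups on the log2(value + 1) scale for the 29 tested members (circles) with 95% intervals from limma, colored by role. The filled circle marks an adjusted p under 0.05, which Fzd4 alone reached, in methylparaben minus vehicle. The intervals of Wif1 lie below 0 in both comparisons with vehicle.

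Reads in introns come mostly from unspliced RNA and gave a second measurement in the same tumors. Of the 39 members with a row 21 were tested, and limma, edgeR and DESeq2 each called 0 of them in the 3 comparisons. Limma called 0 of all 14281 rows as well. For methylparaben against vehicle edgeR called 0.336% and DESeq2 0.392% of all rows, for propylparaben against vehicle 0 and 0.084%, and between the esters 0.007% and 0. An unadjusted p under 0.05 was reached by 2, 2 and 1 of the 21 members, against 13.3%, 12.1% and 3.47% of all rows. These were Lgr4 and Wif1 for methylparaben, Wif1 and Dkk3 for propylparaben, and Lef1 between the esters. Dkk3 introns differed by -0.71 between propylparaben and vehicle tumors (limma adjusted p = 0.345), where the gene table gave 0.19. Lef1 introns were 0.73 higher in propylparaben than in methylparaben tumors (limma p = 0.0283), where the gene table gave 0.10. Wif1 introns had 0 through 12.9 to 47.5 scaled CPM in methylparaben, 1.53 through 10.3 to 67.0 in propylparaben and 4.03 through 21.5 to 421 in vehicle tumors. The differences of Wif1 introns from vehicle were -1.06 ± 0.42 for methylparaben and -1.36 ± 0.42 for propylparaben (limma adjusted p = 0.260 and 0.195), close in size to those of its gene-table values. Lgr4 introns were 0.42 ± 0.14 lower in methylparaben than in vehicle tumors (limma adjusted p = 0.188), with 3 of 20 tumors above the vehicle median. In propylparaben tumors they were 0.26 ± 0.14 lower (limma adjusted p = 0.449), with 2 of 20 above it. Fzd4 introns, with 130 reads over all libraries, had 0 through 4.17 to 15.1 scaled CPM in methylparaben, 0 through 3.63 to 18.9 in propylparaben and 0 through 3.27 to 8.68 in vehicle tumors. Their difference from vehicle was 0.32 ± 0.31 for methylparaben (95% interval -0.31 to 0.94, limma adjusted p = 0.710). For propylparaben it was -0.0027 (interval -0.63 to 0.62, limma adjusted p = 0.999), where the gene table gave 0.65. Wnt2 introns (102 reads) differed from vehicle by -0.08 for methylparaben and 0.47 for propylparaben, where the gene table gave 0.75 and 0.58. For Sfrp2 introns (39 reads) both differences were -0.24, where the gene table gave 0.50 and 0.62. With methylparaben 7 members lay above and 14 below 0 in introns, against 20 above and 9 below in the gene table.

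The strand setting of the counting is not given in the sources used here, so reads of overlapping genes on opposite strands cannot be told apart. Exons of Axin2, Wnt5a, Wnt7b, Wnt11, Fzd5, Fzd6, Sfrp2 and Lef1 overlap those of antisense genes in GENCODE M21. Fbxl14 lies within Wnt5b on the opposite strand, and Wnt5b introns had 8511 reads where the gene table gave 3133. Fzd4, Wif1 and Wnt2 have no annotated overlap.

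Across the 59 tumors, several Wnt genes varied together with marker scores of a cell type. Of 406 pairs of a tested member and 1 of 14 scores, 89 had an adjusted p under 0.05 for Spearman's rho (two-sided permutation, 100000 resamples), 66 positive and 23 negative, and 21 of the 29 members had at least 1. The closest score was the fibroblast score for 7 members, the basal epithelial score for 5, the mitosis score for 4, and a different score for each of the other 5. Without the 7 libraries that stood apart the count was 43.

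Wnt2 followed the fibroblast score (r = 0.81, rho = 0.82), as did Sfrp4 (r = 0.82, rho = 0.82) and Sfrp2 (r = 0.83, rho = 0.81). For each of these 3 genes the permutation p was 1e-05 for both coefficients, the smallest that the resamples can give, with adjusted p = 0.000156 for r and 0.000169 for rho. The relation held within groups, with rho between 0.70 and 0.83 in methylparaben, 0.77 and 0.80 in propylparaben and 0.72 and 0.88 in vehicle tumors. It stayed at r = 0.78 to 0.80 without the 2 tumors farthest from the median score, and at rho = 0.74 to 0.78 without the 7 libraries. Fzd1 (rho = 0.57), Dkk2 (0.52) and Wnt9a (0.51) were positively and Fzd9 (-0.43) negatively related to the same score. Their adjusted permutation p for rho lay between 0.000169 and 0.00767. Dkk2 had rho = 0.19 within methylparaben tumors.

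Wnt4, a ligand that progesterone is known to induce in hormone-sensing luminal cells, followed the score of those cells. The coefficients were r = 0.78 and rho = 0.74 (permutation p = 1e-05 for each, adjusted p = 0.000156 and 0.000169), with rho = 0.64 in methylparaben, 0.68 in propylparaben and 0.86 in vehicle tumors, r = 0.75 without the 2 farthest tumors and rho = 0.67 without the 7 libraries. Lgr4 was negatively related to that score (rho = -0.60) and positively to the mitosis score (r = 0.63, rho = 0.62, permutation p = 1e-05 for each). The relation to mitosis had rho = 0.51 in methylparaben, 0.77 in propylparaben and 0.45 in vehicle tumors.

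Fzd4 was closest to the adipocyte score (r = 0.75, rho = 0.66, permutation p = 1e-05 for each, adjusted p = 0.000156 and 0.000169). Within groups rho was 0.62 in methylparaben, 0.57 in propylparaben and 0.71 in vehicle tumors, and r was 0.65 without the 2 farthest tumors. Its relations to the fibroblast (rho = 0.65), endothelial (0.63) and mitosis scores (-0.63) were nearly as strong. Wif1 was closest to the mitosis score (r = 0.53, permutation p = 2e-05; rho = 0.60, permutation p = 1e-05), with rho = 0.55 in methylparaben, 0.38 in propylparaben and 0.52 in vehicle tumors. It was r = 0.53 without the 2 farthest tumors and rho = 0.57 without the 7 libraries.

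Basal epithelial markers accompanied Dkk3 (r = 0.70, rho = 0.65), Wnt5a (r = 0.59, rho = 0.52), Wnt5b (r = 0.47, rho = 0.46), Sfrp1 (r = 0.46, rho = 0.41) and Wnt7b (r = 0.49, rho = 0.39). The adjusted permutation p of these 5 for rho were 0.000169 to 0.0131, and r stayed between 0.43 and 0.63 without the 2 farthest tumors. Wnt5b had rho = 0.64 in methylparaben and 0.73 in propylparaben but 0.02 in vehicle tumors, a difference that was not tested. The remaining closest scores were mitosis for Tcf7 (rho = 0.43) and Fzd5 (0.38), endothelial for Fzd8 (0.37), epithelial for Lrp6 (-0.41) and skeletal muscle for Lrp5 (-0.42), with adjusted permutation p from 0.00630 to 0.0208. Within vehicle tumors rho was -0.09 for Fzd5 and -0.02 for Fzd8. Axin2, Lef1, Lgr5, Fzd2, Fzd3, Fzd6, Fzd7 and Fzd10 had no score with an adjusted p under 0.05.

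**Figure D4:**
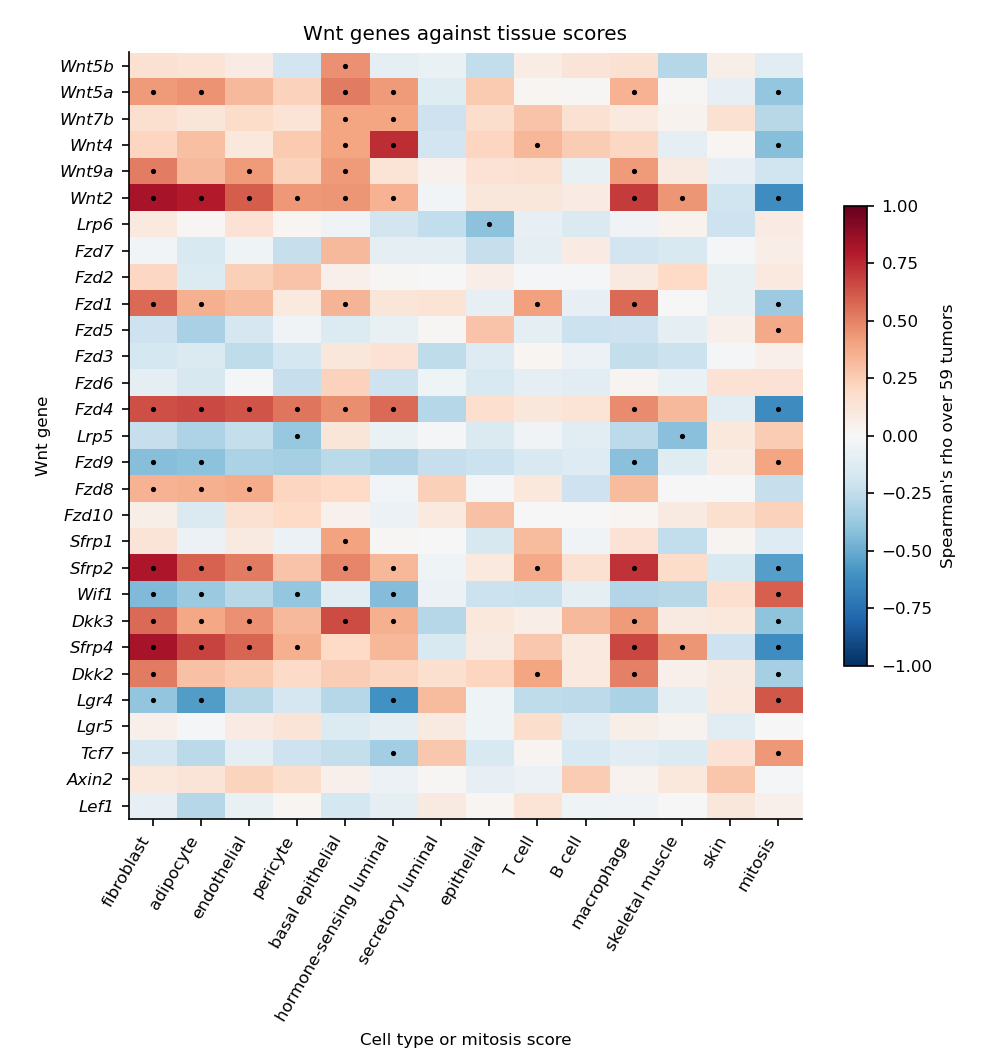
Spearman's rho over 59 tumors between each tested Wnt gene (rows) and each score (columns), from blue (-1) to red (1), with a dot where the adjusted permutation p is under 0.05. Wnt2, Sfrp2 and Sfrp4 share red cells for fibroblast, adipocyte and macrophage scores, and Wif1 and Lgr4 are blue for fibroblast and adipocyte and red for mitosis.

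**Figure D5:**
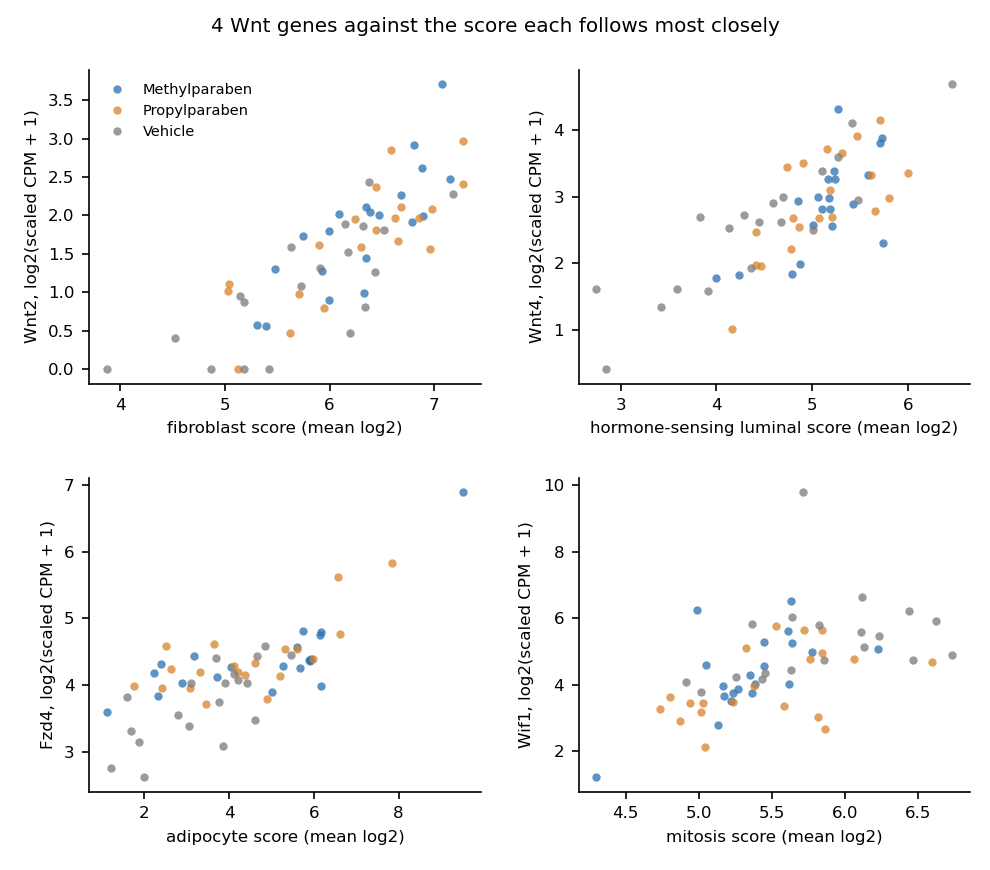
log2(scaled CPM + 1) of 4 Wnt genes against the score each follows most closely, 1 point per tumor, colored by group. Wnt2 rises with the fibroblast score (rho = 0.82) and Wnt4 with the hormone-sensing luminal score (0.74). Fzd4 rises with the adipocyte score (0.66) and Wif1 with the mitosis score (0.60). The 3 groups overlap along each trend but are not evenly spread. The adipocyte score reaches 9.52 in methylparaben and 7.83 in propylparaben but only 5.47 in vehicle tumors. Vehicle tumors have the lowest fibroblast score (3.87) and the highest mitosis score (6.73). They also have both the lowest (2.75) and the highest (6.46) hormone-sensing luminal score.

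Between members, 58 of 406 pairs had an adjusted permutation p under 0.05 for rho, 47 positive and 11 negative. The count was 11 without the 7 libraries. The closest pair was Sfrp2 with Sfrp4 (r = 0.74, rho = 0.73, permutation p = 1e-05 for each, adjusted p = 0.000451 and 0.000507). It had rho = 0.55 in methylparaben, 0.70 in propylparaben and 0.82 in vehicle tumors, r = 0.69 without the 2 farthest tumors and rho = 0.68 without the 7 libraries. Wnt2 with Sfrp4 (rho = 0.65), Sfrp2 with Dkk2 (0.63), Dkk3 (0.59), Fzd1 (0.58), Wnt9a (0.57), Wnt2 (0.56) and Fzd4 (0.54), Wnt9a with Fzd1 (0.56) and Wnt2 with Fzd4 (0.55) make up the 10 pairs with the largest rho. Their adjusted permutation p for rho were 0.000507 to 0.000812. Wnt2 with Fzd4 had rho = 0.24 within propylparaben tumors. The ligands Wnt5a and Wnt5b did not pass (r = 0.12, permutation p = 0.357; rho = 0.15, permutation p = 0.250). Nor did Axin2 with Lef1 (rho = -0.24, permutation p = 0.0733) or with Tcf7 (rho = 0.03, permutation p = 0.826).

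A few single tumors carried a Wnt gene far above all others. They were picked after their values were seen and are described without a test. In methylparaben tumor 20 Axin2 stood at 77.9 scaled CPM, against a median of 5.47 over the 59 tumors, and the same tumor had the highest Tcf7 (14.03), Nkd1 (8.22), Nkd2 (88.5), Notum (4.84) and Apcdd1 (45.5). Axin2, Nkd1, Notum and Apcdd1 are known both as targets and as inhibitors of canonical Wnt signaling. Their medians over the 59 tumors were 1.73 for Nkd1, 26.5 for Nkd2, 0 for Notum and 11.2 for Apcdd1. Cd44, another known target, was second highest there (360.4, against a median of 253.5), Ccnd1 was second lowest (342, against 512), and Lef1 was near its median. Rnf43, like Znrf3 a known target that removes Frizzled receptors, ranked 56 of 59 there (19.4, against a median of 25.7), while Znrf3 was among the highest (43.5, against 22.3). Of the other known targets looked at, Tnfrsf19 ranked sixth (62.4, against 31.9), Myc lay below its median (24.2, against 27.8) and Sp5 had no reads. The adipocyte score of this tumor was the lowest of all (1.12), and its skin score, from keratins and other genes of the epidermis, was the fourth highest (3.01, against a median of 1.09).

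Vehicle tumor 13 held the second highest Axin2 (39.1 scaled CPM) and the highest Tnfrsf19 (164, against a median of 31.9), a known Wnt target. Nkd1 (2.95), Nkd2 (33.1) and Apcdd1 (15.1) ranked 13th there. Znrf3 ranked 2 of 59 (44.3, against a median of 22.3) and Rnf43 ranked 3 (35.4, against 25.7). Notum ranked 4 (0.985, against 0) and Myc ranked 8 (42.3, against 27.8). Cd44 (236, against 253.5) and Ccnd1 (501, against 512) lay below their medians, and Sp5 had no reads. Wnt4 (0.328), Wnt7b (1.97) and Dkk3 (4.27) were the lowest of all tumors. Vehicle tumor 13 is among the 7 libraries that stood apart. Axin2 introns ranked second in methylparaben tumor 20 (9.66) and first in vehicle tumor 13 (13.3).

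Wif1 reached 882 scaled CPM in vehicle tumor 4, 8.94 times the next tumor (98.6), and its introns were highest there too (421). The same tumor had the highest Lgr4 (149) and Fzd1 (43.01) and the lowest Tnfrsf19 (12.6), Rnf43 (14.5) and epithelial score (6.73). Other genes named for the 2 tumors above went both ways in vehicle tumor 4. Apcdd1 (20.6), Nkd2 (40.2) and Tcf7 (8.88) each ranked 6 of 59, and Znrf3 ranked 23. Axin2 and Nkd1 ranked 39, Ccnd1 and Myc 45 and Cd44 52, while Notum and Sp5 had no reads. In vehicle tumor 10, Lef1 was at 15.8 scaled CPM, 3.92 times the next, with introns of 76.4, the highest Sfrp1 (420.0) and the lowest Wnt5a (12.7). That tumor also had the highest mitosis score (6.73). In propylparaben tumor 12 Fzd9 (41.001) and Fzd5 (91.4) were highest while Tcf7 (0.646) and Fzd1 (7.10) were lowest, together with the basal (3.52) and secretory luminal (5.10) scores.

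Other genes of the pathway were taken from a list of 55 covering secretion, receptor turnover, cytoplasmic and nuclear steps, planar polarity and targets. Of the 47 tested, 2 rose and 1 fell with methylparaben (limma, 1.32% of all genes called), and 7 higher and 8 lower genes had an unadjusted p under 0.05, against 22.1% of all genes. With propylparaben against vehicle 0 passed with limma (0.0276% of all genes), and 6 higher and 7 lower had an unadjusted p under 0.05, against 18.4% of all genes. Between the esters limma called 0, and 0 had an unadjusted p under 0.05, against 2.15% of all genes. The median difference over the list was 0.01 with methylparaben. Jun, a transcription factor with many inputs besides Wnt, averaged 170.3 ± 21.7 scaled CPM in methylparaben and 129 ± 39.6 in vehicle tumors (SD, log2 difference 0.45, limma adjusted p = 0.0301). Cd44, a cell surface glycoprotein, averaged 272 ± 39.99 in methylparaben and 222 ± 50.3 in vehicle tumors (0.32, limma adjusted p = 0.0456). Tcf7l1, a TCF factor known mainly as a repressor, averaged 18.6 ± 7.10 in methylparaben and 29.6 ± 12.2 in vehicle tumors (-0.65, limma adjusted p = 0.0389). Without the 7 libraries these differences were 0.30, 0.22 and -0.37 (limma adjusted p = 0.842 for each).

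With propylparaben the smallest p in that list belonged to Vangl2, a planar polarity gene (25.9 ± 4.59 in propylparaben, 34.4 ± 8.77 in vehicle tumors, -0.37, limma adjusted p = 0.0681), Cd44 (0.31, limma adjusted p = 0.0692) and Tcf7l1 (-0.56, limma adjusted p = 0.0841). Between the esters it belonged to Apcdd1 (-0.40), Znrf3 (-0.22) and Vangl2 (-0.15), each with a limma adjusted p of 1.000.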

How the data were processed

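RNA of 59 tumors was processed by the authors with bcl2fastq 2.20.0.422, STAR 2.6.1d on GRCm38 and HTSeq 0.10.0, per the submitters' processing notes. For annotation, strand setting, intron definition and normalization tool, the sources used here name nothing. The deposited values are a signal, normalized counts per gene, and were whole multiples of a factor per library (100% within 1e-06 reads), which recovered the reads. In the gene table they equal CPM values scaled by trimmed-mean (TMM) factors, with the 5 HTSeq summary lines counted in the library total. This match was checked for the gene table only. The 5 summary lines were left out of the tests and 0 columns stayed unused.

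Values were tested as log2(value + 1) with limma 3.58.1 (trend, R 4.3.3) in 1 fit of all 59 libraries, for rows with a mean of at least 1, with Benjamini-Hochberg adjustment over the whole table and calls under 0.05. Alternatives included edgeR 4.0.16 and DESeq2 1.42.0 on recovered reads. Correlations used permutation tests. The fit was also run on simulated counts drawn independently for each gene, which lack the variation shared between genes seen in these tumors. Its outcome there is not given here. Groups came from the treatment label. The rule for members uses gene symbols and no measured value, but the Wnt family and the gene lists were chosen with earlier results of these data known. Named were members called or among the 6 smallest p of a comparison, the 5 most abundant per role, Axin2, Lef1, Tcf7, Lgr5, the closest score of each member, the 10 closest pairs, and pathway genes called or among the 3 smallest p.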

Additional observations from a re-analysis of the deposited data

How the results depend on the processing

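The count of Wnt members called for methylparaben against vehicle was 1. It was 0 with a pseudocount of 10, without the filter, with only the 2 groups compared, with array weights, with 6 cell type scores or the mitosis score as covariates, without the 7 libraries that stood apart and without the 5 libraries with a low scaling factor, and 2 with edgeR. For propylparaben against vehicle it was 0, and 1 with edgeR. Leaving out single libraries gave 0 to 2 in each of these comparisons, and 0 between the esters and for introns. The cause of these shifts was not tested. The 89 pairs of members and scores became 52 of 238 with a mean of at least 10, which tests fewer members, and 43 without the 7 libraries. The 58 pairs of members became 21 of 136 and 11 under the same settings. Lgr5 between the esters reversed to 0.0082 with array weights. Leaving out the 7 libraries, the 5 libraries or adjusting for mitosis was chosen after seeing the data. No paired analysis was possible because nothing in the labels links a tumor of one group with a tumor of another. Depth limits Wnt2, Lef1 and the 13 rarest ligands, of which few reads were counted.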
